A study of Mus musculus with 9 samples.

Results

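The tubulin and kinesin genes of the array were all genes whose platform symbol was Tuba, Tubb or Tubg followed by a digit, Kif followed by a digit, Tubd1 or Stmn1. The rule gave 53 genes, measured by 81 probes, of 17499 named genes tested. They were 7 alpha-tubulins, 7 beta-tubulins, 3 gamma- and delta-tubulins, 12 kinesins of the spindle and of cytokinesis, 23 other kinesins, and Stmn1. Where a gene had several probes, as 20 of the 53 did, its value was their mean. No platform symbol matched Tube1.

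Murine CD8+ T cells, the cytotoxic lineage, had been cultured for 4 days in the presence of IL-21, IL-15 or IL-2 (10 ng/ml of each) or without any of them, and all 4 kinds of culture were then restimulated for 4 h in the absence of cytokine. Each of 9 arrays set RNA from cytokine-treated cells against RNA from untreated cells, with 3 replicates per cytokine, so that a value is a log2 ratio of cytokine-treated over untreated cells. The labels call the replicates biological but do not say whether they came from separate animals, and neither strain nor age is given in the sources used here. The stated purpose was to compare how the cytokines act on gene expression in lymphocytes. The ratio direction is likely and not settled. The labels put the cytokine-treated cells in Cy5 on all arrays, whereas the series' design text gives exchanged dyes for replicates 2 and 3 and leaves out 1 array. Arrays of replicates 1 and 3 correlated down to r = -0.35 over all probes, for IL-2 in replicate 1 and IL-21 in replicate 3. With the same cytokine in both, r was -0.28 for IL-21, -0.09 for IL-15 and -0.26 for IL-2. The main values with the sign of replicates 2 and 3 turned are therefore given as well.

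Microtubules are hollow polymers of alpha- and beta-tubulin dimers that start from gamma-tubulin rings, and stathmin, the product of Stmn1, binds free dimers and favours shrinkage. Kinesins are motor proteins that walk along microtubules or take them apart. In a dividing T cell the spindle kinesins separate the chromosomes and the daughter cells, and most of their genes are transcribed mainly in the late cell cycle, whereas other kinesins move vesicles and organelles at all times. In a cytotoxic T cell that meets its target, microtubules also carry lytic granules to the contact site.

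Promoter sequence was available for 43 of the 53 genes, as the 250 bases before the RefSeq transcription start (build GRCm38.p6). The genes without a window were Stmn1, Kif5a, Kif5b, Kif8, Kif13b, Kif20a, Kif21b, Tubb2b, Tubb6 and Tubg1. The windows of 4 genes that stand for the main patterns below are shown 5′ to 3′ along the transcript, all from the minus strand. Kif22 and Kif23 were the spindle kinesins called with IL-2, Tubb4b is a beta-tubulin with a like pattern, and Tuba1a is the alpha-tubulin that was high with all 3 cytokines. Capitals mark TTTGAA, the letters of the cell cycle genes homology region found in many promoters of late cell cycle genes, and CCAAT, the box bound by NF-Y, each read on either strand. The windows are chr7:127042421-127042670 for Kif22, chr9:61946800-61947049 for Kif23, chr2:25224703-25224952 for Tubb4b and chr15:98953502-98953751 for Tuba1a.
Kif22: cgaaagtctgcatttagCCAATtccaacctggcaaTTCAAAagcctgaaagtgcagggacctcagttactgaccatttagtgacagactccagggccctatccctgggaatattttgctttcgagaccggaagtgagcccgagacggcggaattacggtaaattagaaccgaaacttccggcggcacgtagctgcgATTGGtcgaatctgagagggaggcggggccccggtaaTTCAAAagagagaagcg
Kif23: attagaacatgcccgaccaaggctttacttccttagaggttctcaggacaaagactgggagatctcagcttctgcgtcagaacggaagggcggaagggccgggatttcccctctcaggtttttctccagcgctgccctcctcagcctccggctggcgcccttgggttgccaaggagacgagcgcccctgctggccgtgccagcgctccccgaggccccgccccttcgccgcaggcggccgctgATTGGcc
Tubb4b: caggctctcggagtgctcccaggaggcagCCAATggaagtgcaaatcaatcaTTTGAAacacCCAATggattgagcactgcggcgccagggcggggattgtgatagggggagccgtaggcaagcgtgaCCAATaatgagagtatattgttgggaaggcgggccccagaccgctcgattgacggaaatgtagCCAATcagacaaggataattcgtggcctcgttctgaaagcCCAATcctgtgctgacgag
Tuba1a: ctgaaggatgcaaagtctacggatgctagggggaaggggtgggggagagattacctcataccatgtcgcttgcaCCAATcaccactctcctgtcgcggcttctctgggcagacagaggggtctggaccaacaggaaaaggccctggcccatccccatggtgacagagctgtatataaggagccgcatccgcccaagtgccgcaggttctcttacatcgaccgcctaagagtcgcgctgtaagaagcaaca

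Kif22 held TTTGAA on the opposite strand from 17 bases and from 215 bases before the start. It held CCAAT on the opposite strand from 54 bases before the start and on the strand shown from 233 bases before it. Kif23 held CCAAT on the opposite strand from 7 bases before the start, and none of its letters matched TTTGAA. Tubb4b held 5 CCAAT matches and a TTTGAA 198 bases before the start, and Tuba1a held CCAAT 176 bases before it. Tuba1b, an alpha-tubulin with a pattern like that of Tubb4b, has a window that is not shown and held neither motif. Of the 11 spindle kinesin windows, 5 held TTTGAA (45.5%), 7 held CCAAT (63.6%) and 3 held both (27.3%). Of the 22 windows of 18 other kinesins, 3 held TTTGAA (13.6%), 8 held CCAAT (36.4%) and 2 held both (9.1%). Over all 32851 windows of 27025 genes, the shares were 16.0% for TTTGAA, 33.8% for CCAAT and 5.5% for both. Alpha-tubulin windows held TTTGAA in 1 of 7 and CCAAT in 4 of 7, beta-tubulin windows in 1 of 5 and 3 of 5, and both gamma- and delta-tubulin windows held neither. The other motifs searched, on both strands, were TTTAAA, found in 2 of 11 spindle kinesin windows, 1 alpha-tubulin window and 12.1% of all windows, and TTGGCGC, an E2F-type site that can share bases with CCAAT, found in 2 of 11 and in 2.0%. A match describes these letters and shows no binding.

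With IL-2, 5 of the 53 genes rose above untreated cells and none fell: Stmn1, the spindle kinesins Kif22 and Kif23, the alpha-tubulin Tuba1a and the beta-tubulin Tubb6. Each of these 5 was measured by 1 probe, so that no second probe could be compared. The test was limma across all 17499 genes with Benjamini-Hochberg adjustment and a threshold of 0.05, and over all genes it called 0.76% higher and 0.04% lower. With IL-15 no member passed, against a background of 0.126% higher, and with IL-21 no member passed and no gene of the array did. Before adjustment, p was under 0.05 for 5 members with IL-21 (2 higher, 3 lower), for 16 with IL-15 (15 higher, 1 lower) and for 20 with IL-2, all higher. Of all 17499 genes, the same p was reached by 2.62% higher and 3.43% lower with IL-21, 5.1% and 2.15% with IL-15, and 6.77% and 2.05% with IL-2. The 3 comparisons share the untreated cells, and a ratio set against 0 leaves out the spread between untreated cultures. In such bulk samples, a larger share of cells in division and more RNA of these genes per cell cannot be told apart.

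**Figure D1:**
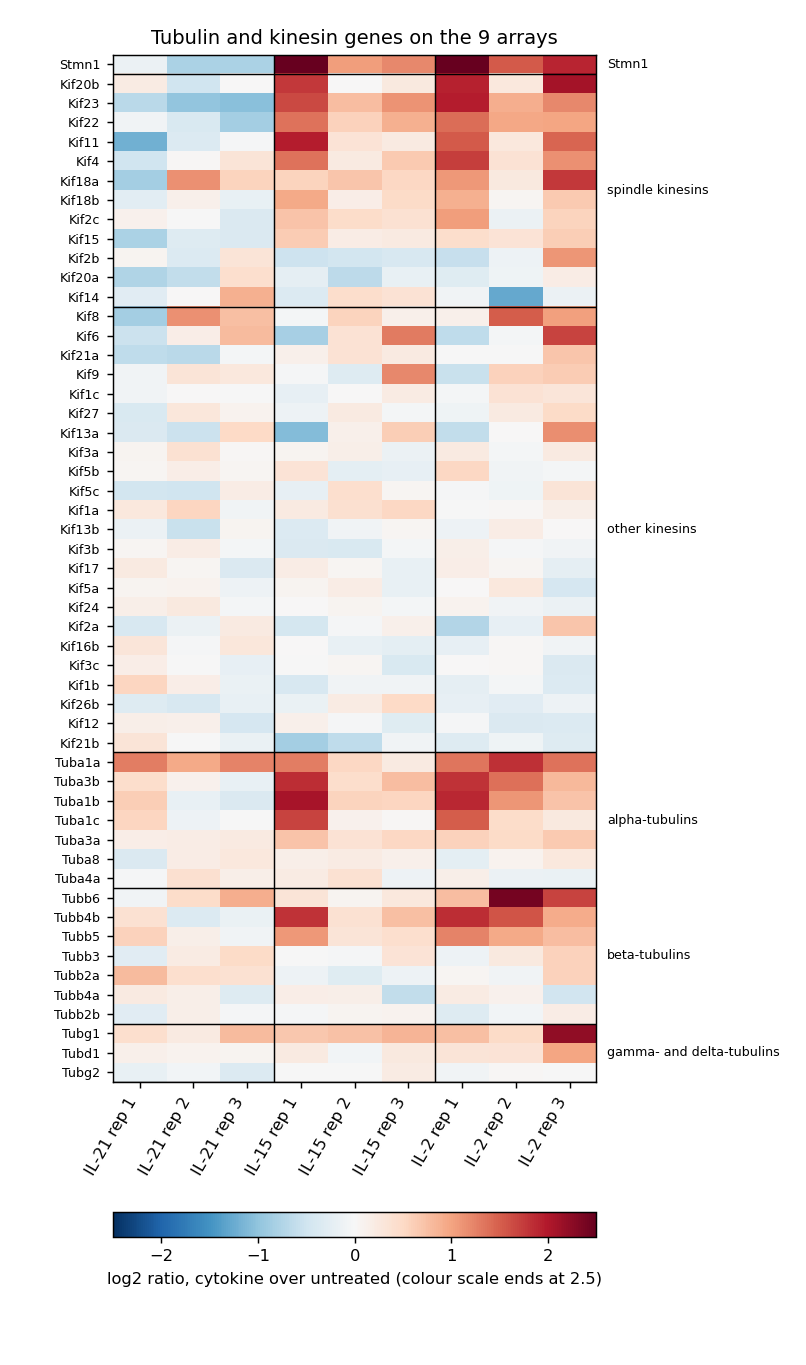
Log2 ratio of cytokine-treated over untreated cells for each of the 53 genes (rows, grouped by role) on each of the 9 arrays (columns, 3 replicates per cytokine), red for higher and blue for lower with cytokine, with the colour scale ending at 2.5. Stmn1 and most spindle kinesins are red with IL-15 and IL-2 and pale or blue with IL-21, Tuba1a is red on all 9 arrays, and most other kinesins are pale.

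The same samples were also fitted with the replicate number as a block, since arrays with the same number deviated together. With the block, 10 members rose with IL-2 (background 1.73%), 4 rose with IL-15 (background 0.623%) and 0 changed with IL-21 (background 0.0629% higher and 0.0686% lower). The 5 genes added with IL-2 were Tubb5, Tubb4b, Tuba3a, Tuba3b and Tuba1b, and the 4 with IL-15 were Stmn1, Kif22, Kif23 and Tuba1b. With the replicate as a random block, 0 members passed with IL-15 (limma adjusted p = 0.102 for Stmn1, 0.115 for Kif22, 0.0758 for Kif23 and 0.285 for Tuba1b), against 0.166% of all genes higher and 0% lower. With IL-2, 5 rose under the random block, against 0.594% of all genes higher and 0.0286% lower: Stmn1, Kif22, Kif23, Tuba1a and Tubb5. The other added genes then had limma adjusted p-values of 0.0536 for Tubb4b, 0.0653 for Tuba3b, 0.0924 for Tuba3a and 0.110 for Tuba1b. Against untreated cells, the blocked p leaves out variation that the arrays of a replicate share. The IL-2 calls depended on the arrays kept: 3 of the 5 (Stmn1, Tuba1a and Tubb6) passed without replicate 1, and 0 passed without replicate 2, without replicate 3 or without IL-2 replicate 3 alone. With quantile normalization, with a trended robust variance or with only the IL-2 arrays in the fit, 0 passed, and with arrays centred on their median 2 did (Tuba1a and Tubb6). Over all genes, the fit without a block called 140 with IL-2. The count was 69 without replicate 1, 6 without IL-2 replicate 3 and 0 without replicate 2 or 3. It was 19 with quantile normalization, 103 with centring, and 0 with the trended robust variance or with only the IL-2 arrays.

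Stmn1 had log2 ratios, as deposited, of -0.15, -0.78 and -0.80 with IL-21, 2.88, 1.04 and 1.20 with IL-15, and 2.71, 1.54 and 1.90 with IL-2 in replicates 1, 2 and 3. All IL-21 arrays lay below 0 and all IL-15 and IL-2 arrays above it, so that the IL-21 values overlapped neither of the others. The mean was 2.05 ± 0.35 with IL-2 (SE, n = 3; 4.14-fold; limma adjusted p = 0.0428, 0.00741 with the block). It was 1.70 ± 0.35 with IL-15 (adjusted p = 0.141, 0.0206 with the block in limma) and -0.58 ± 0.35 with IL-21 (adjusted p = 0.844, 0.255 with the block in limma). Here and below, SE is the standard error from the limma fit, whose variance is pooled over the arrays of all cytokines. It is therefore equal for the 3 cytokine means of a gene and does not give the spread of each. For Stmn1 the standard deviation of the 3 arrays was 0.60 with IL-2, 1.02 with IL-15 and 0.37 with IL-21.

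The 12 spindle kinesins had median log2 ratios of -0.10 with IL-21, 0.56 with IL-15 and 0.78 with IL-2, against medians of 0.00, 0.00 and 0.05 over all genes tested. Kif23, a motor of the centralspindlin complex that is needed to complete cytokinesis, had log2 ratios of -0.68, -0.99 and -1.05 with IL-21, 1.64, 0.77 and 1.13 with IL-15, and 1.96, 0.91 and 1.21 with IL-2. Its 3 IL-21 arrays were the lowest of its 9, and its IL-15 and IL-2 arrays overlapped. It rose with IL-2 by 1.36 ± 0.22 (SE, n = 3; 2.56-fold; limma adjusted p = 0.0362, 0.00832 with the block) and stood at 1.18 ± 0.22 with IL-15 (limma adjusted p = 0.105, 0.0206 with the block). With IL-21 it stood at -0.91 ± 0.22, with a limma adjusted p of 0.476 (0.0673 with the block).

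Kif22, a chromokinesin that binds chromosome arms, had log2 ratios of -0.08, -0.39 and -0.84 with IL-21, 1.36, 0.57 and 0.89 with IL-15, and 1.41, 0.97 and 0.98 with IL-2. The signs split as for Kif23, below 0 on all IL-21 arrays and above 0 on the other 6. It rose with IL-2 by 1.12 ± 0.19 (SE, n = 3; 2.17-fold; limma adjusted p = 0.0430, 0.0131 with the block), and stood at 0.94 ± 0.19 with IL-15 (limma adjusted p = 0.139, 0.0328 with the block).

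**Figure D2:**
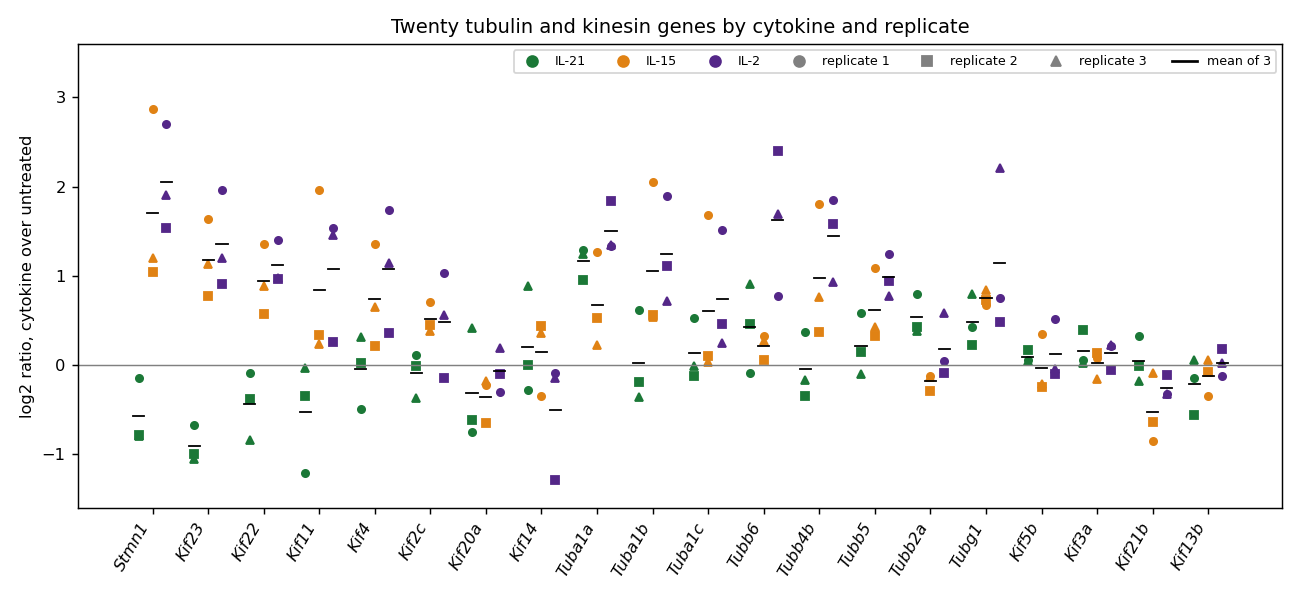
Log2 ratio over untreated cells (vertical axis) for 20 of the genes (horizontal axis), with IL-21 in green, IL-15 in orange and IL-2 in purple, replicates 1, 2 and 3 as circles, squares and triangles, and the mean of 3 as a bar. For Stmn1, Kif23 and Kif22 the IL-21 arrays lie below 0 and the other arrays above it, while Tuba1a lies above 0 on all 9 arrays, between 0.22 and 1.83.

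Kif11 and Kif4 varied more between replicates than Kif22 and Kif23 did. Kif11, the motor that pushes spindle poles apart, had log2 ratios of -1.21, -0.34 and -0.03 with IL-21, 1.97, 0.34 and 0.23 with IL-15, and 1.53, 0.26 and 1.46 with IL-2. Its signs split by cytokine as well, but its IL-2 mean of 1.08 ± 0.39 did not pass (SE, n = 3; limma adjusted p = 0.399, 0.232 with the block). Kif4, a chromokinesin that works with Prc1 on the midzone, had log2 ratios of -0.49, 0.03 and 0.32 with IL-21, 1.35, 0.22 and 0.65 with IL-15, and 1.73, 0.36 and 1.14 with IL-2. Its IL-2 mean was 1.08 ± 0.29 (SE, n = 3; limma adjusted p = 0.192), and its 2 probes averaged 0.32 and -0.41 with IL-21. Kif2c, which takes microtubule ends apart at kinetochores, had 0.11, -0.01 and -0.37 with IL-21, 0.71, 0.45 and 0.38 with IL-15, and 1.04, -0.14 and 0.56 with IL-2 on the log2 scale. Its IL-15 arrays all lay above its IL-21 arrays, whereas its IL-2 values overlapped both.

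Kif20a, Kif14 and Kif2b did not share the pattern. Kif20a, which acts in cytokinesis, had log2 ratios of -0.75, -0.61 and 0.42 with IL-21, -0.23, -0.65 and -0.18 with IL-15, and -0.30, -0.10 and 0.19 with IL-2. Kif14, also a cytokinesis motor, had -0.28, 0.00 and 0.88 with IL-21, -0.35, 0.44 and 0.35 with IL-15, and -0.08, -1.29 and -0.14 with IL-2 on the log2 scale. Its IL-2 mean was -0.51. Kif2b, a relative of Kif2c, had 0.08, -0.35 and 0.32 with IL-21, -0.52, -0.45 and -0.39 with IL-15, and -0.58, -0.12 and 1.09 with IL-2. The smallest adjusted p of these 3 genes against untreated cells in the limma fit was 0.742, for Kif14 with IL-2. Of the 12 spindle kinesins, 8 had positive log2 ratios on all 3 IL-2 arrays and 9 on all 3 IL-15 arrays, where all genes gave 15.3% and 15.1%, and 4 had negative ratios on all 3 IL-21 arrays, where all genes gave 12.4%. Kif2b and Kif20a had negative ratios on all 3 IL-15 arrays, where all genes gave 12.6%. The 4 spindle kinesins not yet described, Kif15, Kif18a, Kif18b and Kif20b, ranged from -0.49 to 0.28 with IL-21, 0.34 to 0.67 with IL-15 and 0.47 to 1.42 with IL-2, and none passed.

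Among the tubulins, Tuba1a and Tubb6 rose with IL-2, and their patterns across the cytokines differed from those of the spindle kinesins. Tuba1a, an alpha-tubulin best known from developing neurons, had log2 ratios of 1.29, 0.96 and 1.25 with IL-21, 1.27, 0.52 and 0.22 with IL-15, and 1.34, 1.83 and 1.35 with IL-2. The mean of the 5 Tuba3a probes was above 0 on all 9 arrays in the direction as deposited, though each probe fell below 0 on some array. Tuba1a, measured by 1 probe, was above 0 on all 9 as well. The mean was 1.16 ± 0.20 with IL-21 (limma adjusted p = 0.183, 0.104 with the block), 0.67 ± 0.20 with IL-15 (limma adjusted p = 0.358) and 1.51 ± 0.20 with IL-2 (2.84-fold; limma adjusted p = 0.0162, 0.0186 with the block; SE, n = 3 each). Tubb6, a beta-tubulin, had log2 ratios of -0.09, 0.46 and 0.91 with IL-21, 0.33, 0.06 and 0.27 with IL-15, and 0.78, 2.40 and 1.69 with IL-2. It rose with IL-2 by 1.62 ± 0.28 (SE, n = 3; 3.08-fold; limma adjusted p = 0.0437, 0.0308 with the block, 0.0652 with the replicate as a random block). Its IL-2 arrays all lay above its IL-15 arrays, and its IL-21 and IL-2 arrays overlapped.

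Tuba1b, Tubb4b and Tubb5, which code for broadly used tubulins, passed with IL-2 with the replicate as a block but not in the fit without it. Tuba1b had log2 ratios of 0.61, -0.19 and -0.36 with IL-21, 2.06, 0.56 and 0.54 with IL-15, and 1.89, 1.11 and 0.72 with IL-2. Replicate 1 was the highest of the 3 for each cytokine, and the IL-2 mean of 1.24 had a limma adjusted p of 0.207, or 0.0112 with the block (0.101 to 1.00 over the other alternatives). Tubb4b had 0.37, -0.34 and -0.17 with IL-21, 1.80, 0.38 and 0.76 with IL-15, and 1.85, 1.58 and 0.93 with IL-2 on the log2 scale. Its IL-2 mean was 1.45 ± 0.28 (SE, n = 3; limma adjusted p = 0.0646, 0.0166 with the block), and all its IL-2 arrays lay above all its IL-21 arrays. Tubb5 had 0.59, 0.14 and -0.10 with IL-21, 1.09, 0.33 and 0.42 with IL-15, and 1.24, 0.94 and 0.77 with IL-2. Its IL-2 mean was 0.99 ± 0.19 (SE, n = 3; limma adjusted p = 0.0640, 0.0112 with the block), and its 2 probes disagreed in size, at 1.53 and 0.44.

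Tuba1c, another alpha-tubulin, had log2 ratios of 0.53, -0.12 and -0.02 with IL-21, 1.68, 0.10 and 0.03 with IL-15, and 1.51, 0.46 and 0.24 with IL-2, so that its IL-15 and IL-2 means rested mostly on replicate 1. Tuba3b and Tuba3a, known as testis alpha-tubulins in mouse, averaged 0.12 and 0.19 with IL-21, 1.02 and 0.53 with IL-15, and 1.33 and 0.56 with IL-2. The Tuba3b values lay close to those of Tuba1b on most arrays, and the 5 probes of Tuba3a ranged from 0.15 to 1.19 with IL-2. Some alpha-tubulin genes are much alike in their coding sequence, and a probe for 1 of them may bind RNA of another. Probe sequences were not available, so which alpha-tubulin gene gave these values is uncertain. The same could not be checked for Tuba1a or the other tubulins. Tuba4a, which encodes an alpha-tubulin without the terminal tyrosine, had log2 ratios of -0.04, 0.40 and 0.14 with IL-21, 0.21, 0.38 and -0.12 with IL-15, and 0.15, -0.15 and -0.16 with IL-2. It did not share the pattern of Tuba1b. The 7 alpha-tubulins had median log2 ratios of 0.13 with IL-21, 0.61 with IL-15 and 0.74 with IL-2.

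Tubb2a, Tubb2b and Tubb3, beta-tubulins best known from neurons, passed in no comparison. Tubb2a had log2 ratios of 0.79, 0.43 and 0.38 with IL-21, -0.12, -0.30 and -0.13 with IL-15, and 0.04, -0.09 and 0.58 with IL-2. Its log2 difference of IL-21 minus IL-15 was 0.72 ± 0.22 and did not pass (SE, n = 3 each; limma adjusted p = 0.546, 0.246 with the block), and it was -0.11 with the sign of replicates 2 and 3 turned. Tubb2b had log2 ratios of -0.28, 0.14 and -0.03 with IL-21, -0.03, 0.06 and 0.09 with IL-15, and -0.32, -0.06 and 0.19 with IL-2. Tubb3 had -0.29, 0.20 and 0.48 with IL-21, -0.01, -0.03 and 0.35 with IL-15, and -0.13, 0.24 and 0.58 with IL-2. For both genes the lowest array of each cytokine was replicate 1 or 2 and the highest replicate 3, except Tubb2b with IL-21. The median over the 7 beta-tubulins was 0.13 with IL-21, 0.10 with IL-15 and 0.23 with IL-2.

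Tubg1, the gamma-tubulin that nucleates microtubules at the centrosome, was above 0 on all 9 arrays and passed with no cytokine. Its log2 ratios were 0.42, 0.22 and 0.80 with IL-21, 0.67, 0.73 and 0.84 with IL-15, and 0.75, 0.48 and 2.21 with IL-2. The IL-2 mean of 1.15 ± 0.29 (SE, n = 3; limma adjusted p = 0.148, 0.0537 with the block) drew on replicate 3, the array with the widest spread. Tubd1, the delta-tubulin of centrioles, averaged 0.10, 0.13 and 0.55, and Tubg2 averaged -0.20, 0.06 and -0.02, with IL-21, IL-15 and IL-2.

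The 23 other kinesins gave ratios near 0, and none passed in any comparison, with or without the block. Their median log2 ratio was 0.01 with IL-21, 0.01 with IL-15 and 0.03 with IL-2. The mean lay within 0.5 of 0 for 23 of 23 genes with IL-21, 22 with IL-15 and 22 with IL-2. Kif5b, the heavy chain of conventional kinesin, had log2 ratios of 0.06, 0.17 and 0.04 with IL-21, 0.34, -0.24 and -0.21 with IL-15, and 0.51, -0.10 and -0.04 with IL-2. Its 95% intervals were -0.28 to 0.46 with IL-21, -0.41 to 0.34 with IL-15 and -0.25 to 0.50 with IL-2. Kif3a, a motor of kinesin-2 that serves cilia, had 0.06, 0.39 and 0.03 with IL-21, 0.08, 0.14 and -0.15 with IL-15, and 0.22, -0.05 and 0.23 with IL-2 on the log2 scale. Both genes overlapped between all 3 cytokines.

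Kif21b, which limits microtubule growth, had log2 ratios of 0.32, -0.02 and -0.17 with IL-21, -0.86, -0.64 and -0.09 with IL-15, and -0.32, -0.11 and -0.33 with IL-2. Its IL-15 mean of -0.53 ± 0.17 did not pass (SE, n = 3; limma adjusted p = 0.405), and its 2 probes averaged -0.18 and -0.87 there. Kif1b, which carries mitochondria and vesicle precursors, had 0.54, 0.17 and -0.16 with IL-21, -0.41, -0.09 and -0.08 with IL-15, and -0.22, -0.04 and -0.34 with IL-2. Its values were below 0 on all IL-15 and IL-2 arrays and overlapped those with IL-21. They are means of 4 probes, which averaged from -0.63 to 0.12 with IL-15 and from -0.39 to 0.01 with IL-2. Kif13b, a cargo motor, had -0.14, -0.56 and 0.06 with IL-21, -0.35, -0.08 and 0.05 with IL-15, and -0.12, 0.18 and 0.02 with IL-2. Kif12 had 0.14, 0.13 and -0.43 with IL-21, 0.12, -0.03 and -0.31 with IL-15, and -0.02, -0.36 and -0.33 with IL-2. Neither separated the cytokines. The exception to the low IL-2 values was Kif8, a symbol with no current RefSeq match, with a mean of 0.89 and log2 ratios of 0.12, 1.52 and 1.03. Kif6 and Kif13a, chosen after their values were seen, followed the replicate number more than the cytokine. Kif6 had -0.54, -0.83 and -0.64 in replicate 1 and 0.78, 1.30 and 1.69 in replicate 3 with IL-21, IL-15 and IL-2. Kif13a had -0.36, -1.08 and -0.61 in replicate 1 and 0.49, 0.61 and 1.16 in replicate 3, in the same order of cytokines.

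Between the cytokines, IL-21-treated cells gave lower values than IL-2-treated cells for most of the spindle kinesins, Stmn1 and several tubulins, but no member passed in the fit without the block, where 0.0743% of all genes were lower and 0.00571% higher. The unadjusted limma p was under 0.05 for 14 members, all lower, where 4.46% of all genes were lower and 1.51% higher at that p, and the smallest adjusted p of a member was 0.0544, for Kif23. Of the 53 genes, 24 were lower in all 3 replicates and 4 higher, where all genes gave 23.2% and 13.1%. With the replicate as a block, 3 members fell with IL-21 relative to IL-2, against 0.497% of all genes lower and 0.0286% higher, and with a random block 5 did, Kif15 and Tubb4b being the added ones, against 1.02% lower and 0.131% higher. These were differences between ratios of the same replicate, so that the RNA of untreated cells cancels only if it was shared within a replicate, which the labels do not say.

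**Figure D3:**
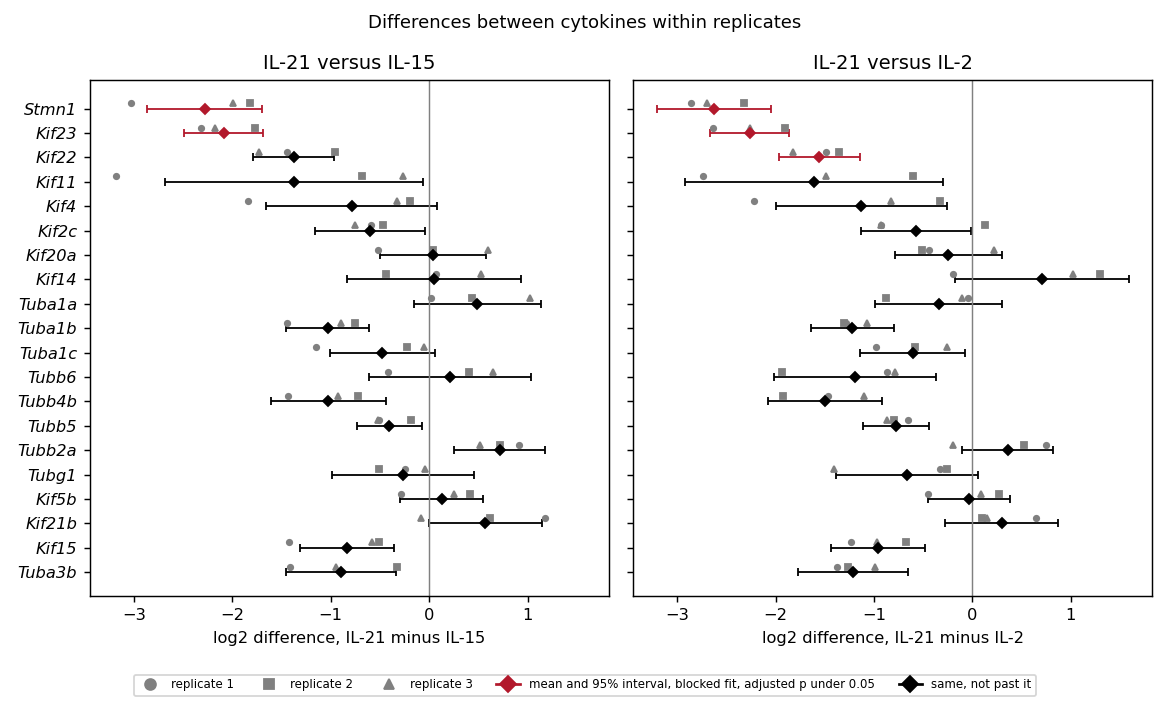
Log2 difference of IL-21 minus IL-15 (left) and of IL-21 minus IL-2 (right) for 20 genes, with replicates 1, 2 and 3 as grey circles, squares and triangles, and the mean with its 95% interval from the fit with the replicate block. Red marks an adjusted p under 0.05: Stmn1 and Kif23 in both panels and Kif22 against IL-2, each lower in all 3 replicates.

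The log2 difference of IL-21 minus IL-2 was -2.63 ± 0.50 for Stmn1 (0.162 times the IL-2 level; limma adjusted p = 0.114, 0.0205 with the block and 0.00918 to 1.00 over all alternatives; SE, n = 3 each). The blocked 95% interval of the difference ran from -3.21 to -2.04. Kif23 differed by -2.26 ± 0.31 (0.208 times; limma adjusted p = 0.0544, 0.0110 with the block and 0.00398 to 1.00 over all alternatives), with a blocked interval of -2.67 to -1.86. Kif22 differed by -1.55 ± 0.27 (0.341 times; limma adjusted p = 0.0960, 0.0242 with the block and 0.00918 to 1.00 over all alternatives). All 3 genes were lower with IL-21 in 3 of 3 replicates. The upper ends of these ranges came from the setting in which the sign of replicates 2 and 3 was turned.

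Against IL-15, Stmn1 and 9 of the 12 spindle kinesins had lower means with IL-21, with a median difference of -0.70 over these kinesins, and that of the 7 beta-tubulins was 0.03. No member passed without the block (0.0171% of all genes lower), where the unadjusted limma p was under 0.05 for 12 members, 2 higher and 10 lower, and for 2.07% of all genes higher and 3.61% lower. In all 3 replicates, 19 of the 53 genes were lower and 6 higher with IL-21, where all genes gave 20.3% and 16.4%. With the block, Stmn1 fell by 2.28 ± 0.24 and Kif23 fell by 2.09 ± 0.17 on the log2 scale (limma adjusted p = 0.0395 and 0.0172; SE, n = 3 each), against 0.16% of all genes lower and 0.0229% higher. Without it their adjusted p was 0.253 and 0.140. Kif22 differed by -1.38 with a limma adjusted p of 0.213, 0.0560 with the block and 0.0284 with the random block, which called 0.617% of all genes lower and 0.109% higher. Tuba1a stood apart from the spindle genes: its difference was -0.34 (95% interval -0.99 to 0.30) from IL-2 and 0.49 (-0.15 to 1.13) from IL-15.

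IL-15 and IL-2 were not told apart for any member. No member and no gene passed between them in limma, with or without the block, and the unadjusted p was under 0.05 for Tubb6 and Tuba1a, both lower with IL-15, where 0.943% of all genes were lower and 0.497% higher at that p. The log2 difference of IL-15 minus IL-2 was -1.40 ± 0.40 for Tubb6 and -0.83 ± 0.28 for Tuba1a (SE, n = 3 each; limma adjusted p = 1.00 for both). Of the 53 genes, 14 were lower in all 3 replicates and 5 higher with IL-15, where all genes gave 15.4% and 9.72%. The 95% interval of IL-15 minus IL-2 was -1.48 to 0.79 for Stmn1, -0.89 to 0.54 for Kif23 and -0.80 to 0.44 for Kif22. With the block it was -0.93 to 0.24, -0.58 to 0.22 and -0.59 to 0.23 in the same order of genes.

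Genes that work with the members were read from lists of pathway genes. Of 18 measured partners of the spindle, such as the microtubule bundler Prc1 and the spindle factor Tpx2, the limma fit called 2 higher with IL-2. These were Birc5 at 1.47 ± 0.22 (limma adjusted p = 0.0254) and Prc1 at 1.10 ± 0.19 (limma adjusted p = 0.0467), and 6 were called with the block. Of all genes, limma called 0.76% higher with IL-2, and 1.73% with the block. It called 0 of the partners with IL-21, with or without the block. With IL-15 it called 0, and 1 with the block, Birc5 (limma adjusted p = 0.0359), against 0.623% of all genes higher. For IL-21 against IL-2 it called 0. With the block, Tpx2 and Birc5 were lower there (limma adjusted p = 0.0366 and 0.0424), against 0.497% of all genes. The unadjusted limma p was under 0.05 for 10 partners with IL-15, all higher, and for 3 with IL-21, 1 higher and 2 lower. All genes gave 5.1% higher and 2.15% lower with IL-15, and 2.62% and 3.43% with IL-21. The median log2 ratios of the partners were -0.19 with IL-21, 0.70 with IL-15 and 1.10 with IL-2. Of 19 measured genes of tubulin folding and nucleation, such as the tubulin cofactors and the CCT chaperonin, none passed, and their medians were 0.04, 0.29 and 0.19. The smallest adjusted p there was for Tbcb at 0.77 ± 0.16 with IL-2 (limma adjusted p = 0.0838). Of 22 measured regulators of interphase microtubules, none passed without the block and Hdac6, a tubulin deacetylase, passed with it with IL-2 (0.85 ± 0.24; limma adjusted p = 0.222, 0.0169 with the block), and their medians were 0.01, 0.06 and 0.03.

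Genes of proliferation moved with the spindle kinesins. Of 19 measured, 7 rose with IL-2 in limma, among them Rrm2 at 1.22, Bub1b at 1.63 and Top2a at 2.12, 14 with the block, and the median log2 ratios were -0.23 with IL-21, 0.82 with IL-15 and 1.07 with IL-2. With IL-15 0 passed, 5 with the block, and the unadjusted p was under 0.05 for 15, all higher. Of all genes, 0.76% were called higher with IL-2 and 1.73% with the block. With IL-15 these shares were 0.126% and 0.623%, and 5.1% were higher at the unadjusted p. For Bub1b, a spindle checkpoint kinase, the log2 difference of IL-21 minus IL-2 was -2.19 (limma adjusted p = 0.0476, 0.0205 with the block). Limma called 1 of the 19 lower in that comparison, 6 with the block, against 0.0743% and 0.497% of all genes. For IL-21 against IL-15 these counts were 0 and 1, against 0.0171% and 0.16%. The part of these genes' change in the members' values was not tested.

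**Figure D4:**
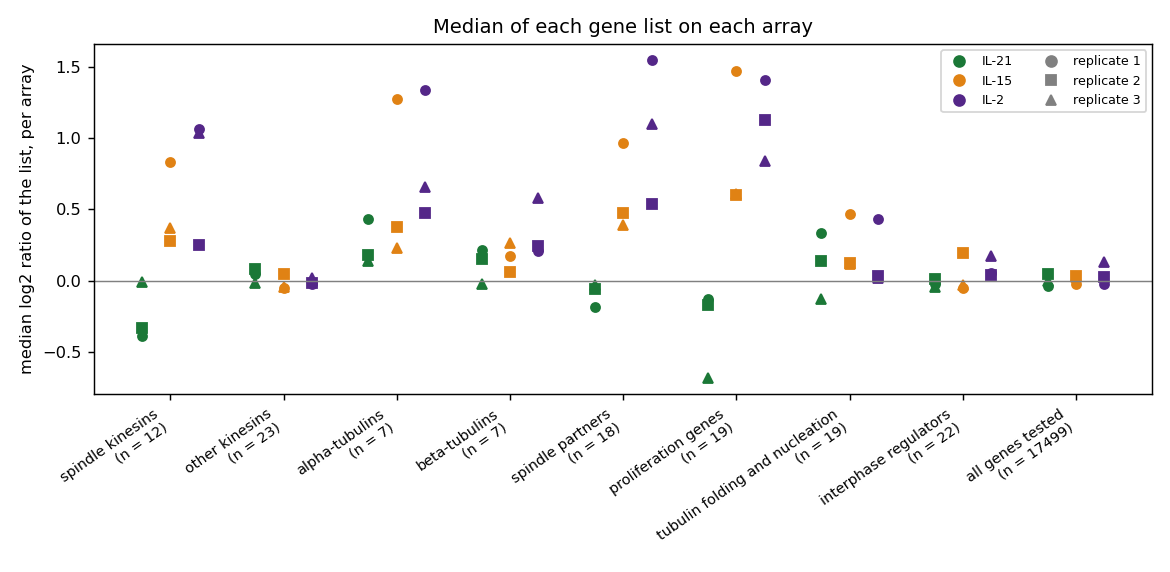
Median log2 ratio over untreated cells (vertical axis) of each gene list on each array, with IL-21 in green, IL-15 in orange and IL-2 in purple and replicates 1, 2 and 3 as circles, squares and triangles, and n as the number of genes measured. Spindle kinesins, spindle partners and proliferation genes lie above 0 on all IL-15 and IL-2 arrays and below 0 on all IL-21 arrays, while the other kinesins lie near 0 on all 9.

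The arrays were much alike in their medians, from -0.05 to 0.13, and IL-2 replicate 3 had the highest median and 13.6% of probes beyond 1 in size, against 4.10% to 6.47% on the others. With the sign of replicates 2 and 3 turned, no gene of the array passed in any of the 6 comparisons, and the IL-2 values of the called members were -0.24 for Stmn1, -0.052 for Kif23, -0.18 for Kif22, -0.62 for Tuba1a and -1.10 for Tubb6. With IL-21 the turned means were 0.48 for Stmn1, 0.46 for Kif23 and -0.30 for Tuba1a, with IL-15 they were 0.21, -0.088 and 0.17, and Kif14 stood at 0.45 with IL-2. The differences of IL-21 from IL-2 were then 0.72 for Stmn1, 0.51 for Kif23 and 0.56 for Kif22. If all deposited ratios instead run from untreated to cytokine-treated cells, every sign given here turns. Ratios cannot show whether a cell type is present. Of the cell type markers measured, 6 of T cells, 3 of CD4 T cells, 5 of B cells, 5 of myeloid and dendritic cells and 4 of erythroid cells, none passed in any comparison, and the medians of these lists lay between -0.33 and 0.23 in the 6 comparisons, apart from the erythroid list at 0.58 in IL-21 minus IL-15 (Hbb-b2 at 0.84, limma adjusted p = 0.848). The part of these markers in the members' values was not tested.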

How the data were processed

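The authors deposited a table of 36547 probes by 9 arrays, made from scanned arrays. The values deposited by the authors were taken as log2 ratios of the channels, since they are signed and scatter around 0. A natural log is possible, in which case all changes here are too small by a common factor. How the arrays were scanned, corrected for background, normalized and logged is not given in the sources used here. No intensities were used, so that dim probes could not be set apart. Of the probes, 26926 had 1 gene symbol, 203 had several and 9418 had none, by the platform annotation. Control probes (39) were left out, and probes were averaged per gene.

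Tests used limma 3.58.1 in R 4.3.3 on all 9 arrays, with a mean per cytokine, no other term, and Benjamini-Hochberg adjustment over 17499 genes. Each SE is the standard error from the limma fit, with a variance pooled over all 9 arrays. On simulated data with independent noise on each array, the script recovered most changed genes. The changes put in were larger than those of most members, and arrays of a replicate were not correlated. The simulation therefore cannot show how the fit without a block does on arrays that deviate together. Replicate numbers, from the titles, pair the arrays: deviations of same-numbered arrays from their group means correlated at 0.152 to 0.647 in all 9 pairs. A fit with the replicate as a fixed block is therefore printed where it changes a call. Alternatives were the blocks (random block correlation 0.432), quantile normalization, median centring, the median over probes, a trended robust variance, only the arrays compared, turned signs and arrays left out.

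Members, gene lists and tests were chosen with earlier results of these data known. Per-array values are given for members past an adjusted p of 0.05, the 3 highest and 3 lowest members per cytokine, and a fixed list of 22 members. Of the pathway lists, genes past that threshold and up to 4 with the smallest p could be named. The number of arrays limits the precision. P-values measure the spread between these samples, which may be technical.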

Additional observations from a re-analysis of the deposited data

Results flagged for a closer look

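Stmn1 and 5 kinesins lay below 0 on all 3 IL-21 arrays and above 0 on all 3 arrays of another cytokine. For Kif15 and Kif21a this held for the mean of the probes and not for each probe. In IL-21 replicate 3, Kif15 probes stood at 0.04 and 0.08 and a Kif21a probe at 0.14. A Kif15 probe stood at -0.35 with IL-2 and -0.31 with IL-15 in replicate 1. Against IL-2, the log2 differences of IL-21 minus IL-2 were -2.63 for Stmn1, -2.26 for Kif23, -1.61 for Kif11, -1.55 for Kif22 and -0.96 for Kif15. Against IL-15, IL-21 minus IL-15 was -2.28 for Stmn1, -2.09 for Kif23, -1.38 for Kif22, -1.37 for Kif11, -0.84 for Kif15 and -0.68 for Kif21a, a relative of Kif21b. Tubb2a went the other way, above 0 on all IL-21 arrays and below 0 on all IL-15 arrays, with a difference of 0.72. Over all genes, 1.7% had the first pattern against IL-2 and 1.57% against IL-15, and 1.31% had the pattern of Tubb2a.

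The differences were tested in limma. Against IL-2, the adjusted p was 0.0544 for Kif23, 0.0960 for Kif22, 0.114 for Stmn1, 0.175 for Kif15 and 0.555 for Kif11. With the replicate block it was 0.0110, 0.0242, 0.0205, 0.121 and 0.306 in the same order. Against IL-15, the blocked limma adjusted p was 0.0172 for Kif23, 0.0395 for Stmn1, 0.0560 for Kif22, 0.207 for Kif15, 0.246 for Tubb2a, 0.251 for Kif21a and 0.413 for Kif11.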

How the results depend on the processing

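With IL-2 against untreated cells, 5 members passed. The number was 10 with the replicate block, 2 with median centring (Tuba1a and Tubb6) and 0 with quantile normalization, with a trended robust variance, with only the arrays compared, with turned signs and without IL-2 replicate 3. It lay between 0 and 3 when a replicate was left out. Over all genes the IL-2 count of 140 became 343 with the block, 19 with quantile normalization, 6 without IL-2 replicate 3, 69 without replicate 1 and 0 without replicate 2 or 3. It became 103 with median centring and 0 with a trended robust variance, with only the arrays compared and with turned signs. IL-15 against untreated cells went to 4 members with the block and 0 with the random block, where IL-2 gave 5, 4 of them shared with the fit without a block. IL-21 against IL-2 gave 3 members with the block and 5 with the random block, and IL-21 against IL-15 gave 2 and 3, where the main fit had 0. The block changed no other count of members. The causes were not tested, but fewer samples enter where arrays are left out.

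With the sign of replicates 2 and 3 turned, the IL-2 means became -0.24 for Stmn1, -0.052 for Kif23, -0.18 for Kif22, -0.62 for Tuba1a and -1.10 for Tubb6, and the median of all members with IL-2 became -0.13, against 0.20 as deposited. Depth has no counterpart in ratios without intensities.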
